A study of Sus scrofa domesticus with 36 samples.

Results

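The longissimus muscle of young pigs was described on its own, from the 18 muscle libraries of a series of 36. The members were the 18 libraries whose titles carry the muscle suffix, 1 from each of 18 pigs, and only lines of the table that name an Ensembl pig gene were used. The remaining libraries, from backfat of the same animals, were not compared with muscle here. All animals were of 1 commercial cross (Danbred 600 × Newsham NC32 in the growth protocol), and the breed tag carries a Newsham number that changes from sample to sample. No treatment is named, and muscle was taken 3 weeks after weaning according to the design text, while the tags give an age of 16 to 17 days and the stage weaning. The study drew 9 pigs from the lowest 10th percentile of growth after weaning and 9 from the 60th to 70th percentile, out of 1054. Which pig belonged to which class is not stated in the labels, so no growth groups were compared, and whether the spread between pigs follows growth was not analysed here.

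Skeletal muscle fibres are packed with sarcomeres, in which myosin heads pull on actin filaments when calcium frees the binding sites through troponin and tropomyosin. Fast fibres use fast isoforms of myosin, troponin and the calcium pump and draw on glycogen and glycolysis, while slow fibres use slow isoforms and rely more on mitochondria. The longissimus, which runs along the back, is rich in fast glycolytic fibres in the pig, and in young animals embryonic and perinatal isoforms still give way to adult ones. When muscle is fasted, unloaded or ill, FOXO transcription factors raise ubiquitin ligases such as FBXO32 (atrogin-1), which mark contractile proteins for the proteasome.

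Counts assigned to genes ranged from 4716541 to 6216459 per library (mean 5263400 ± 351374, SD, n = 18). A count was seen for 19852 of 25322 genes, and 11804 IDs had a current symbol. Levels are given as CPM (counts scaled to a common library size) after trimmed-mean scaling (TMM) within muscle, not per length, so that a rank is a share of counts and not of molecules. The scaling factors ran from 0.765 in pig Sample_231 to 1.395 in pig Sample_735. Counts in no annotated gene made up 34.1% of pig Sample_572's library, 21.97% of pig Sample_735's and between 16.1% and 23.9% of the others. The first 3 principal components of the log2 levels held 25.6%, 16.7% and 10.3% of the variance.

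Libraries of 3 pigs stood apart. Some results are also given without pigs Sample_572 and Sample_735, or without all 3. The others, among them many values of single genes, are given over all pigs only. Where no such second value is printed, a result may still rest on these libraries. Pigs Sample_572 and Sample_735 had the lowest ACTA1 shares, at 2.15% and 1.93% of gene counts, against 4.95% to 15.6% in the other 16. Pig Sample_231 had the lowest mean rank correlation with the other libraries. That mean was 0.856 in pig Sample_231, 0.862 in pig Sample_735 and 0.872 in pig Sample_572, over a range that reached 0.923 in pig Sample_998.

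The markers of muscle fibres were all present and among the most abundant genes. ACTA1 encodes skeletal alpha-actin, the thin filament itself, and ranked first with a mean of 91309 CPM ± 45403 (SD, n = 18). MYL1, the fast myosin light chain, had a mean of 25497 CPM ± 10328. TNNC2, the calcium-binding subunit of fast troponin, had 10228 CPM ± 3263. Markers of other cell types were low by comparison. The endothelial genes PECAM1 and KDR summed to a mean of 196 CPM (123 to 271), the smooth muscle genes MYH11, CNN1, ACTA2 and TAGLN to 352 CPM (86.8 to 528), and the macrophage genes C1QA, MRC1 and CSF1R to 61.5 CPM (19.8 to 120). The adipocyte genes PLIN1 and CIDEC summed to 5.29 CPM, from 1.44 in pig Sample_735 to 30.4 in pig Sample_889, while ADIPOQ and LEP matched no ID in the name table. The endothelial markers CDH5 and VWF and the macrophage marker CD163 matched no ID either, so the sums for these cell types are partial. The red cell genes HBB, ALAS2 and SLC4A1 summed to 37.3 CPM (5.85 to 143).

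Contractile genes, genes of the mitochondrial genome and glycolytic enzymes were at the top of the ranking. In these libraries 8 genes held 25% of all gene counts, 46 held 50%, 565 held 75% and 2598 held 90%. ACTA1 ranged from 13810 CPM in pig Sample_735 over a median of 98322 to 190872 in pig Sample_242. Pigs Sample_735 and Sample_572 lay far below the third lowest, pig Sample_998, at 42696 CPM. The gene in second place, ENSSSCG00000025268, had no symbol in the name table and a mean of 34590 CPM ± 11554.

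Genes of the myosin motor and its regulators filled many of the next places. MYH8, the perinatal myosin heavy chain, had a lowest value of 8199 CPM (pig Sample_572), a median of 32087 and a highest of 55835 (pig Sample_391). MYH3, the embryonic heavy chain, had 563 CPM ± 269, and MYH13, a heavy chain best known from eye muscle, had 1403 CPM ± 622. MYH6, an alpha heavy chain best known from heart, had 8103 CPM ± 3620. The heavy chain genes are near copies of each other, and the symbols MYH1, MYH2, MYH4 and MYH7 matched no ID here, so the division of counts among them is uncertain. MYL11, the fast regulatory light chain, had 16830 CPM ± 6297, and the tropomyosins TPM1 and TPM2, which cover the binding sites on actin, had 15232 ± 6509 and 12071 ± 4023. DES, the intermediate filament that ties sarcomeres together, had 9639 CPM ± 3127.

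Of the calcium handling genes, ATP2A1, the fast calcium pump of the sarcoplasmic reticulum, had 9323 CPM ± 1908, and its 18 values kept within 5328 and 11952. CASQ1, which stores calcium in that reticulum, spread more, from 911.2 CPM in pig Sample_572 to 7584 in pig Sample_991. SLN, a small inhibitor of the pump, had 3713 CPM ± 1342, and CACNA1S, the voltage sensor of the calcium channel, had 906 ± 267.

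Genes of energy supply were also abundant. Of the glycolytic genes, ENO3, the muscle enolase, had 25277 CPM ± 8142, GAPDH 13368 ± 4923 and PYGM, the glycogen phosphorylase of muscle, 11758 ± 3033. LDHA, which turns pyruvate into lactate, had 879 CPM in pig Sample_572 and 2005 in pig Sample_735, against 3591 to 11568 in the other 15 and 7441 in pig Sample_231. PKM, pyruvate kinase, showed the same low pair at 713 and 1144 CPM, with the remaining 16 between 2845 and 12453. From the mitochondrial genome, COX1, a core subunit of cytochrome oxidase, had 31800 CPM ± 11015, followed by ATP6 with 11570 ± 4795 and COX3 with 10234 ± 3628. COX1 reached 66320 CPM in pig Sample_231, and no other pig exceeded 40775.

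Grouped into lists of genes by role, the contractile and calcium handling lists together held 28.6% ± 6.11 of gene counts (SD, n = 18), from 15.6% to 38.5%. Shared sarcomere genes alone held 14.4% ± 3.56, fast fibre genes 8.79% ± 1.79, and developmental contractile genes 3.44% ± 1.13. Most of the developmental share was MYH8, with 3.12% of 3.45% in pig Sample_77 and 5.03% of 5.41% in pig Sample_391. As the division of counts among the heavy chain copies is uncertain, this share may hold reads of adult heavy chains. Slow fibre genes held 1.01% ± 0.337, with the lowest share in pig Sample_735 (0.535%) and the highest in pig Sample_114 (1.61%). Of the listed symbols, 30 of 41 shared sarcomere, 9 of 17 fast fibre and 6 of 14 slow fibre genes matched an ID. Missing were TNNI2, TNNT3 and ACTN3 among fast and MYL2 and MYH7 among slow fibre markers. These shares therefore cover the matched genes only and may be too low for the tissue. Glycolysis and glycogen genes held 7.48% ± 1.33. The 13 protein genes of the mitochondrial genome held 9.35% ± 2.43, against 0.954% ± 0.191 for 43 nuclear genes of oxidative phosphorylation. Genes of the cytosolic ribosome held 1.34% ± 0.327, matrix genes 0.646% ± 0.250, and genes without a symbol 20.8% ± 1.88. These shares were computed on each library's own gene counts and do not depend on the scaling between libraries.

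The lists for protein breakdown and for the switch between fuels had their highest shares in pigs Sample_572 and Sample_735. The highest share was 3.72 times the lowest for protein breakdown and 9.42 times for the fuel switch list. Some other lists ranged wider, with 20.1 times for erythroid and 16.6 times for immediate early and stress genes. Protein breakdown genes held 0.678% of counts in pig Sample_572 and 0.652% in pig Sample_735, against a median of 0.280% and a lowest share of 0.182% in pig Sample_231. Fasting and fuel switch genes held 0.669% in pig Sample_572 and 0.412% in pig Sample_735, against a median of 0.112% over all 18. Immediate early and stress genes held 0.0175% in pig Sample_242 and 0.290% in pig Sample_186. The mitochondrial genome had its highest share, 14.9%, in pig Sample_231.

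**Figure D1:**
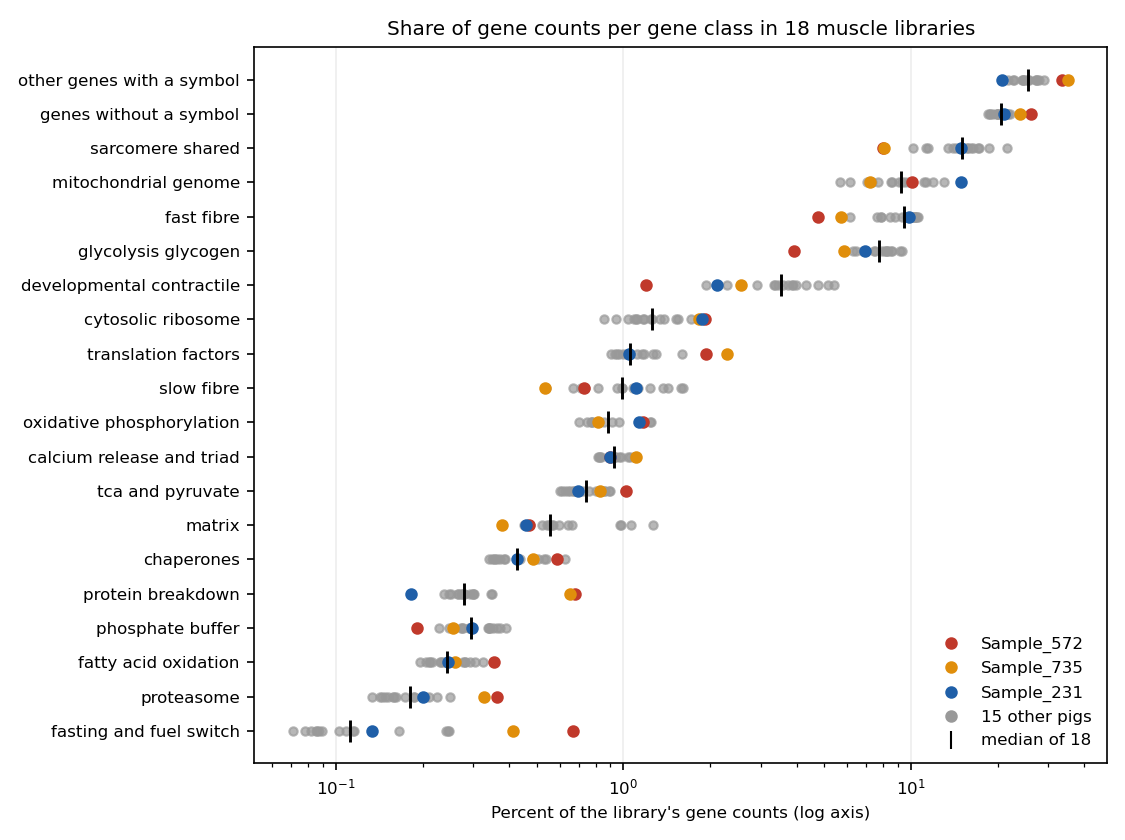
Share of each library's gene counts held by 20 gene classes, on a log axis in percent; each point is 1 pig, with pigs Sample_572, Sample_735 and Sample_231 in colour and the median of 18 as a bar. Pigs Sample_572 and Sample_735 have the lowest shares of sarcomere genes and the highest shares of protein breakdown genes.

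The spread of each gene was taken as the SD of its log2 CPM over the 18 pigs, among the 6333 genes with a mean of at least 10 CPM. The median SD was 0.31, the middle 50% of genes lay between 0.24 and 0.41, and the extremes were 0.09 and 2.49. Spread beyond counting noise alone was called for 6036 of the 6333 genes, 95.3%. These genes departed from the Poisson fit (edgeR goodness-of-fit test, Benjamini-Hochberg adjusted p below 0.05). At this depth the weight of counting error differed by level. The median SD was 0.30 in the 3307 genes with a mean of 10 to 30 CPM, where counting alone would give 0.15. It was 0.49 in the group of 43 genes with the highest means, where counting would give only 0.0077.

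**Figure D2:**
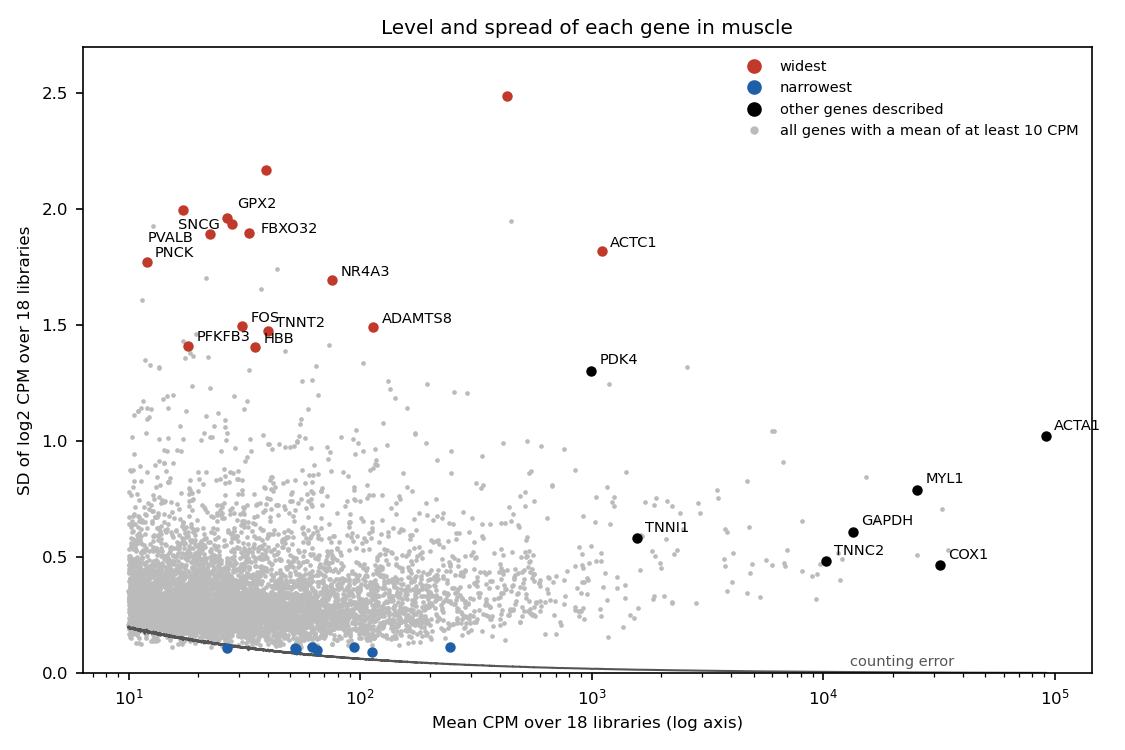
Mean CPM (log axis) against the SD of log2 CPM over 18 libraries for the 6333 genes with a mean of at least 10 CPM, with the SD expected from counting alone as a line. The widest genes, in red, reach an SD of 2.49, and the narrowest, in blue, start at 0.09.

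The widest genes came from several roles, and no single pig accounted for them. Among the 60 widest genes, 13 had their highest value in pig Sample_231, 8 in pig Sample_572 and 7 in pig Sample_889. The lowest value was in pig Sample_731 for 16 of them, in pig Sample_572 for 11 and in pig Sample_735 for 8. Of the 12 widest genes with a symbol, 7 had their highest or lowest value in pig Sample_572 or pig Sample_735. The 3 widest of all genes had no symbol. The first of them, ENSSSCG00000006919, had 5.86 CPM in pig Sample_731, a median of 319 and 1268 in pig Sample_114 (SD 2.49). ENSSSCG00000023489 and ENSSSCG00000010044 followed with SDs of 2.17 and 2.00.

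GPX2, a glutathione peroxidase that removes peroxides, had 0.992 CPM in pig Sample_731, a median of 7.13 and 123 in pig Sample_572. SNCG, gamma-synuclein, had 0.563 CPM in pig Sample_176, 0.67 in pig Sample_572 and 1.26 in pig Sample_911, and between 14.97 and 59.9 in the other 15 pigs. These 3 low values rest on few counts each and leave a gap below the others. PVALB, parvalbumin, which buffers calcium in fast fibres, ran from 0.825 CPM in pig Sample_572 over a median of 19.9 to 103 in pig Sample_391. ACTC1, the cardiac actin that fetal muscle also uses, ran from 54.9 CPM in pig Sample_735 over a median of 541 to 4620 in pig Sample_242. The actins are close copies, and how far reads were shared between ACTC1 and ACTA1 was not tested.

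FBXO32 separated 2 libraries from the rest. It had 274 CPM in pig Sample_572 and 181 in pig Sample_735, while the other 16 pigs lay between 1.86 and 22.9 CPM. Its SD was 1.90 over all 18 pigs and 1.06 without that pair. PFKFB3, which makes the activator of phosphofructokinase, ran from 2.26 CPM in pig Sample_991 to 81.1 in pig Sample_77. ADAMTS8, a secreted metalloprotease, ran from 6.38 CPM in pig Sample_735 to 352 in pig Sample_231.

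Immediate early genes, which respond within minutes to stimuli, peaked in other libraries. NR4A3, a nuclear receptor of this class, had 789 CPM in pig Sample_186, 153 in pig Sample_77 and 112 in pig Sample_114, with the other 15 pigs between 7.35 and 37.0. ATF3, a stress transcription factor, also peaked in pig Sample_186, at 1536 CPM against a median of 155. FOS had its highest value in pig Sample_77, at 161 CPM, and its lowest in pig Sample_731, at 1.89. The list of 12 such genes had a median SD of 0.73, and 9 of them were in the widest 10.0% of genes. The animals were stunned and bled before sampling, and the time from stunning to freezing is not given for each pig.

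**Figure D3:**
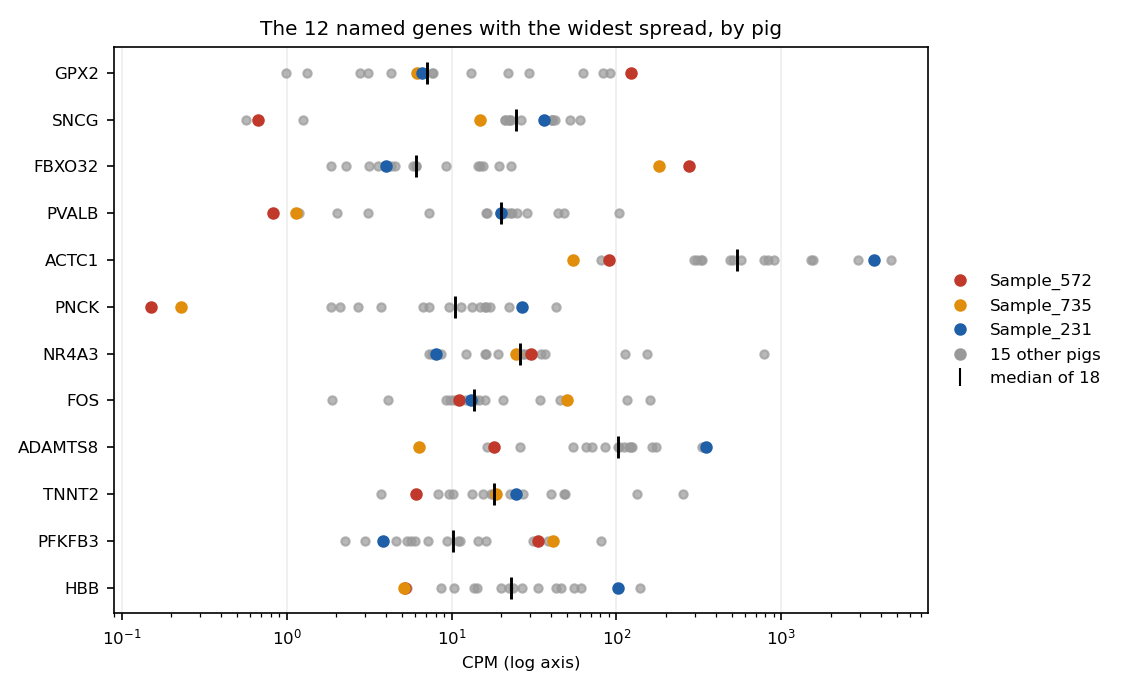
CPM (log axis) of the 12 genes with a symbol that had the widest spread, 1 point per pig, with pigs Sample_572, Sample_735 and Sample_231 in colour and the median of 18 as a bar. FBXO32 is above 180 CPM in pigs Sample_572 and Sample_735 and at or below 22.9 CPM in the other 16, while NR4A3 reaches 789 CPM in 1 of the other pigs.

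Interferon response genes were as a group among the most variable. Of the 20 measured, 18 were in the widest 10.0% of genes, and their median SD was 0.81 against 0.31 over all genes. OAS2, an antiviral enzyme, had 84.7 CPM ± 45.9, with the lowest value in pig Sample_991 (23.3) and the highest in pig Sample_391. HERC6, a ligase of the same response, ran from 24.2 CPM in pig Sample_731 over 76.9 to 206 in pig Sample_911. The whole list held 0.0363% of counts in pig Sample_731 and 0.223% in pig Sample_911. Leaving out pigs Sample_572 and Sample_735 moved its median SD to 0.84.

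Matrix genes, made mainly by fibroblasts between the fibres, also varied: 24 of 47 were in the widest 10.0%, with a median SD of 0.57. Without pigs Sample_572 and Sample_735 that median was 0.48. COL3A1, a fibrillar collagen, had 542 CPM in pig Sample_572, a median of 1816 and 3592 in pig Sample_391. COL1A2, a chain of type I collagen, ran from 96.5 CPM in pig Sample_735 over 416 to 1687 in pig Sample_889. Pig Sample_889 also had the highest PLIN1, at 18.2 CPM, and the highest TOP2A, a marker of dividing cells, at 46.2 CPM. In bulk tissue fewer cells of a type and less RNA per cell cannot be told apart.

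Among the genes with the narrowest spread were a gene of lysosomes, a gene of endosomes and a gene of translation. LAMP1, a lysosomal membrane protein, kept between 102 and 127 CPM in all 18 pigs (SD 0.09). VPS35, of the retromer that sorts endosomal cargo, kept between 55.5 and 72.8 CPM (SD 0.10). EIF3A, a subunit of a translation initiation factor, kept between 214 and 279 CPM (SD 0.11). With library totals in place of trimmed-mean scaling the SD of LAMP1 was 0.28, so these small values hold for the trimmed-mean scale only. By list, the median SD was 0.25 for the mitochondrial ribosome, 0.25 for the citric acid cycle, 0.32 for the cytosolic ribosome and 0.32 for nuclear oxidative phosphorylation, against 0.31 over all genes, with none of their measured genes in the widest 10.0%. The median SD was 0.29 for translation factors, of which 2 of 35 were in the widest 10.0%, so EIF3A does not stand for its list. It was 0.66 for fast fibre, 0.64 for slow fibre and 0.58 for glycolysis genes. Without pigs Sample_572 and Sample_735 it was 0.44 for fast fibre, 0.52 for slow fibre and 0.45 for glycolysis genes, against 0.28 over all genes.

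**Figure D4:**
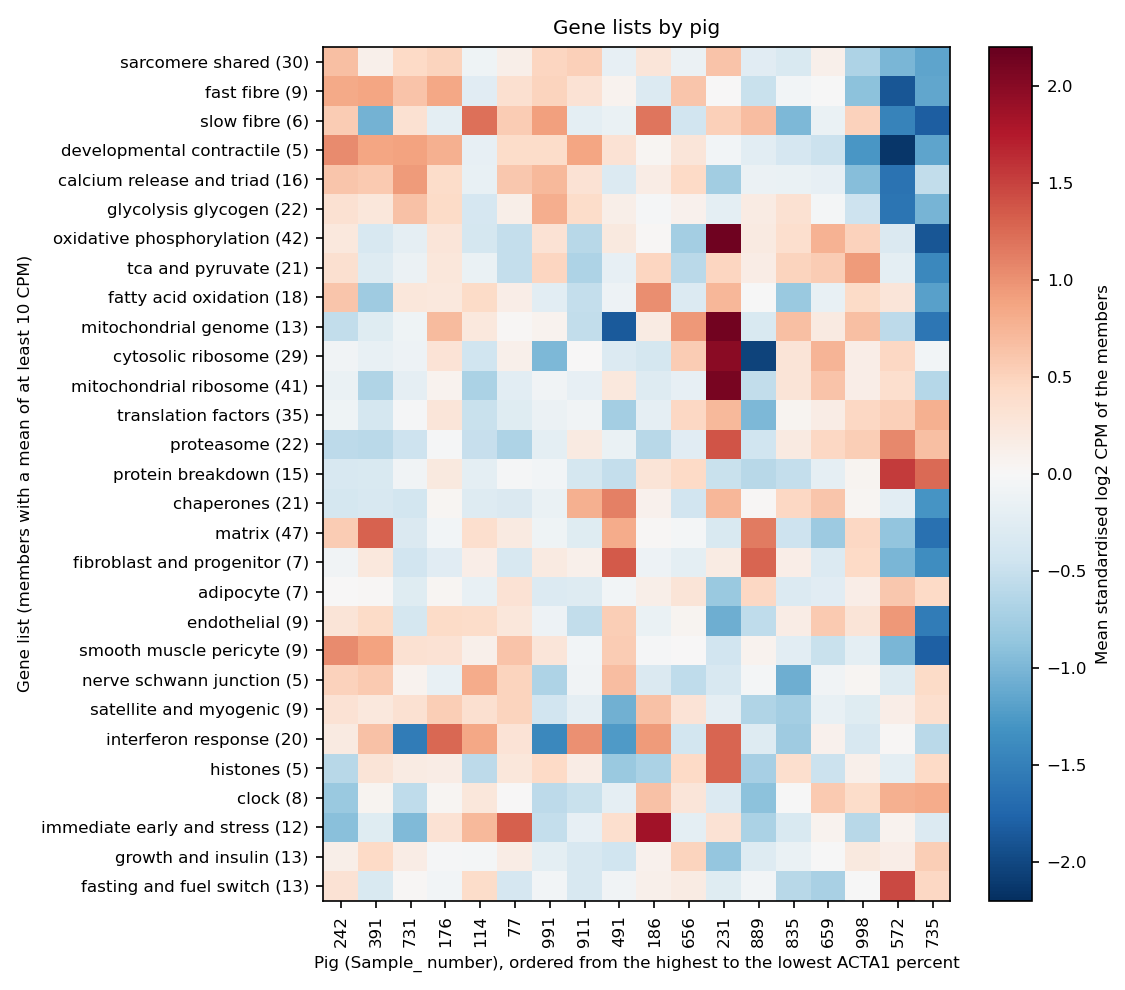
Mean standardised log2 CPM of the members of each gene list (rows, with the number of members) in each pig (columns, ordered from the highest to the lowest ACTA1 percent). Contractile lists are low and protein breakdown is high in pigs Sample_572 and Sample_735. The mitochondrial genome, nuclear oxidative phosphorylation and the cytosolic and mitochondrial ribosome lists are highest in pig Sample_231. So are the proteasome, histone and interferon response lists.

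On the CPM scale pig Sample_231 had the highest mean of the 18 for the mitochondrial genome, nuclear oxidative phosphorylation, cytosolic and mitochondrial ribosome lists, as the map of gene lists by pig shows. The proteasome, histone and interferon response lists were also highest in pig Sample_231, with a mean standardised log2 CPM of 1.39, 1.28 and 1.27. Pig Sample_176 came close for interferon response, at 1.27. As a share of each library's own counts, of all these lists only the mitochondrial genome was highest in pig Sample_231. The proteasome held 0.201% there and 0.364% in pig Sample_572. The cytosolic ribosome held 1.88% in pig Sample_231 and 1.93% in pig Sample_572. Nuclear oxidative phosphorylation held 1.13% against 1.25% in pig Sample_659, and the mitochondrial ribosome 0.174% against 0.219% in pig Sample_572. Its library has the lowest scaling factor of the 18, and the part of that factor in the CPM values was not tested. Chosen after their values were seen, ANKRD1 and CSRP3, which respond to stretch and load, had their highest levels in this pig, at 6394 CPM against a median of 829 and 727 CPM against a median of 172.

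To ask which genes vary together with the main contractile gene, the slope of every gene on the standardised log2 CPM of ACTA1 was tested across the 18 pigs (edgeR quasi-likelihood, Benjamini-Hochberg adjusted over 9445 genes). A slope is the change in log2 CPM per SD of log2 ACTA1, an SD that equals 1.02. Other fast contractile genes, calcium handling genes and glycolytic enzymes were higher where ACTA1 was higher, and ubiquitin ligase and FOXO genes were lower. In all, 910 genes passed, 9.63% of those tested, of which 419 rose with ACTA1 (4.44% of those tested) and the others fell (5.20%). With library totals in place of trimmed-mean scaling 131 rose and 5612 fell, and the median slope of all genes moved to -0.21, so a direction here is relative to the trimmed-mean scale. Most of these calls were lost without pigs Sample_572 and Sample_735, which lie farthest from the median: without them 35 genes rose and 7 fell, and without pig Sample_231 as well 52 rose and 21 fell.

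Among contractile genes, TPM1 had a slope of 0.82 (SE 0.08, adjusted p = 1.49e-06) and MYL11 one of 0.62 (SE 0.08, adjusted p = 3.64e-05). TPM1 kept a slope of 0.43 without pigs Sample_572 and Sample_735 (adjusted p = 0.0196), and MYL11 one of 0.37 (adjusted p = 0.0322). MYL1 fell short without the pair, with 0.74 over all pigs and 0.33 without them (adjusted p = 0.144). In the list of fast fibre genes 6 of 8 tested rose with ACTA1, among shared sarcomere genes 12 of 29, among developmental contractile genes 4 of 5, and none of these fell. Their median slopes were 0.50, 0.29 and 0.71, against -0.0049 over all genes. Without pigs Sample_572 and Sample_735 these counts were 2 of 9, 1 of 29 and 1 of 5, and the median slopes 0.33, 0.14 and 0.47. The developmental list includes heavy chain genes, whose division of counts is uncertain. ATP2A1, the calcium pump, had a slope of 0.06 and did not pass.

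The strongest single calls upward included genes best known from smooth muscle. ACTG2, the enteric smooth muscle actin, had a slope of 1.003 (SE 0.08) and ACTA2, the vascular one, 0.62 (SE 0.08). CNN1, calponin of smooth muscle, had 1.14 (SE 0.12), and LIMS2, an adaptor at integrin adhesions, had 0.54 (SE 0.05). ACTG2, CNN1 and LIMS2 still passed without pigs Sample_572 and Sample_735, with slopes of 0.55, 0.63 and 0.38, while ACTA2 did not (0.28, adjusted p = 0.127). The actin genes are near copies of ACTA1, and how far shared reads reached ACTG2 and ACTA2 was not tested. In the smooth muscle and pericyte list 5 of 12 rose and none fell, and 2 of 12 rose without the pair. The summed smooth muscle markers were lowest in pig Sample_735 (86.8 CPM) and highest in pig Sample_242 (528 CPM), as ACTA1 was. CNN1 and ACTA2, with means of 141 and 142 CPM, made up most of that sum. TAGLN had 33.9 CPM in pig Sample_735 but 70.7 in pig Sample_572. Its median was 64.4 CPM in the pigs other than these and pig Sample_231. MYH11 was highest in pig Sample_889, at 8.83 CPM. The part of smooth muscle cells in the result was not tested.

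Glycolysis followed ACTA1 in 12 of 23 tested genes, with none falling and a median slope of 0.39. Without pigs Sample_572 and Sample_735 2 of 23 rose, at a median slope of 0.12. GAPDH had 0.54 (SE 0.08, adjusted p = 0.000116) and kept 0.38 without pigs Sample_572 and Sample_735 (adjusted p = 0.0198). PKM had 0.83 over all pigs and 0.17 without the pair (adjusted p = 0.737). CASQ1 had 0.77 (SE 0.09), as 1 of 7 among 16 calcium release and triad genes that rose. Without the pair 1 of the 16 rose, and the median slope moved from 0.22 to 0.14. For mitochondrial genes, none of 13 genes of the mitochondrial genome and none of 42 nuclear oxidative phosphorylation genes passed in either direction.

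Of the protein breakdown list 7 of 16 fell with ACTA1 and none rose, at a median slope of -0.22. FBXO32 had a slope of -1.65 (SE 0.17, adjusted p = 1.93e-05). FOXO1, the transcription factor upstream of it, had -0.81 (SE 0.11), with 324 CPM in pig Sample_572 and 299 in pig Sample_735 against a highest value of 143 in the others. FOXO3 had -0.49, and FBXO30, another ubiquitin ligase of muscle, had -0.45. The list also holds EIF4EBP1, a brake on translation, which fell with a slope of -0.43 and had 575 and 542 CPM in the same pair, against at most 337 elsewhere. Proteasome genes fell in 9 of 23 cases, with PSMC5 at -0.21 and PSMC3 at -0.25. Without pigs Sample_572 and Sample_735, none of the 16 breakdown genes and none of the 23 proteasome genes passed, and FBXO32 had -0.48 (adjusted p = 0.546). The median slope moved from -0.22 to 0.0066 for the breakdown list and from -0.09 to -0.07 for the proteasome list.

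Some genes of fasting were high in the same pair. PDK4, which blocks the entry of pyruvate into the citric acid cycle, had 3517 CPM in pig Sample_572 and 2134 in pig Sample_735, but pig Sample_656 came close with 2048 and its slope on ACTA1 did not pass. LPIN1, a lipin that fasting raises, had 317 and 105 CPM against at most 59.3 in the other pigs, and FKBP5, a target of glucocorticoids, had 319 and 249 against at most 156. Both fell with ACTA1, at -0.61 and -0.53. They were the 2 of 14 tested members of the fasting and fuel switch list that passed. Without the pair none of the 14 passed, the slope of LPIN1 was 0.21 (adjusted p = 0.477), and the median slope of the list turned from -0.14 to 0.03.

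Genes of slow fibres were higher where TNNI1 was higher. Of the 6 slow fibre genes tested on ACTA1, TNNT1 (0.47) and MYBPC1 (0.54) rose and the others did not pass, and neither passed without pigs Sample_572 and Sample_735 (adjusted p = 0.916 and 0.382). TNNI1, the slow troponin I, ran from 660 CPM in pig Sample_735 over a median of 1619 to 2545 in pig Sample_991. With its standardised log2 CPM (SD 0.58) as the covariate, 18 of 9445 genes rose (0.191%) and none fell by edgeR, while 884 had an unadjusted p below 0.05 in either direction. By the DESeq2 Wald test 58 rose and 5 fell. Of the 18, 8 have a symbol. The slow subunits TNNT1, TNNC1 and MYL3, the slow light chain, rose with slopes of 0.64 (SE 0.09), 0.55 (SE 0.09) and 0.57 (SE 0.08). They are 3 of the 5 slow fibre genes tested, whose median slope was 0.55 against -0.0057 over all genes.

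MYH6 rose with TNNI1 at 0.59 (SE 0.09, adjusted p = 0.00138), ranging from 3590 CPM in pig Sample_735 to 14333 in pig Sample_114. Its neighbour and near copy MYH7, the slow heavy chain of muscle, matched no ID, and how far reads were shared was not tested. The other 4 with a symbol were GPAM, which starts the synthesis of glycerolipids (0.45), PCBP4, an RNA-binding protein (0.26), TECRL, an enoyl reductase relative of heart and muscle (0.78), and ABHD18 (0.58). Of the fast fibre genes, 0 of 8 passed on TNNI1 in either direction, at a median slope of 0.05.

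Some of the calls on TNNI1 were lost without pigs Sample_572 and Sample_735. Without that pair 10 genes rose and none fell, among them TNNT1, MYL3, MYH6, GPAM and ABHD18, and TNNC1 had an adjusted p of 0.0887. Without the 2 pigs farthest from the median of TNNI1, pigs Sample_391 and Sample_735, 7 rose and 1 fell, with MYL3, MYH6, GPAM and ABHD18 still passing and TNNT1 at an adjusted p of 0.0576.

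**Figure D5:**
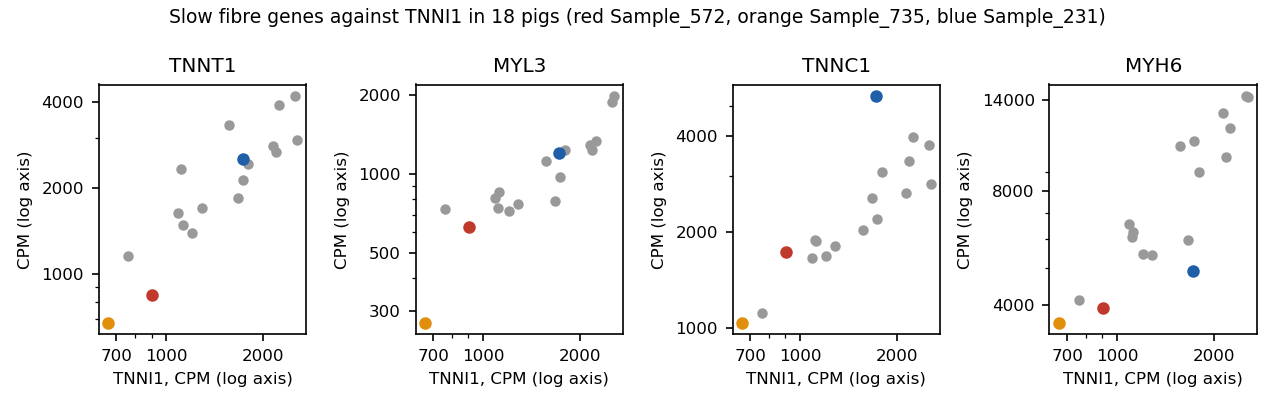
CPM of TNNT1, MYL3, TNNC1 and MYH6 against CPM of TNNI1 (log axes), 1 point per pig, with pigs Sample_572, Sample_735 and Sample_231 in colour. All 4 genes are lowest in pig Sample_735, and pig Sample_231 lies above the others for TNNC1, at 5362 CPM.

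The share of counts outside annotated genes, a property of the library, was tested in the same way. In all, 111 of 9446 genes rose with it (1.18%) and 76 fell (0.805%), together 1.98%. With library totals 3045 rose and 99 fell, at a median slope of 0.16 over all genes. Without pigs Sample_572 and Sample_735 none passed in either direction, although 423 genes had an unadjusted p below 0.05. Among the genes that rose were OSBPL11, an oxysterol-binding protein (slope 0.63, SE 0.07), and LPIN1 (0.64, SE 0.10), which fell with ACTA1, and among those that fell were GAPDHS, the GAPDH copy best known from sperm (-0.55, SE 0.10), and ACTG2 (-0.93, SE 0.16). ACTA1 itself fell with this share, at -0.73 (SE 0.17, adjusted p = 0.0351), so the part of this share in the slopes on ACTA1 cannot be told apart from the pigs.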

How the data were processed

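The authors deposited 1 table of expected counts for both tissues, in steps of 0.5 and not normalised. Per the submitters' processing notes the tools were GSNAP and HTSeq. Their versions, the build, the annotation and the strand setting were not given in the sources used. Total RNA was made into libraries with a TruSeq RNA kit and read at both ends for 100 nt, per the labels' protocols. Overlapping and antisense genes could therefore not be told apart, ND5 and ND6 of the mitochondrial genome included.

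Lines naming no gene (5) stayed out of library sizes. TMM factors were computed within the 18 muscle libraries with edgeR 4.0.16 (R 4.3.3), and log2 CPM used a prior count of 2. Fractional counts were rounded to whole counts (ties to even) for tests. Symbols were matched by gene ID. Spread was tested by Poisson goodness of fit, and slopes on ACTA1, TNNI1 and the percent of counts outside genes by edgeR's robust quasi-likelihood test, with Benjamini-Hochberg adjustment over all genes and a threshold of 0.05. DESeq2 1.42.0 served as an alternative. On simulated counts with slopes of 0.4 and 0.8, 76 and 100 of 100 changed genes were recovered in the ACTA1 design. There were 11 false calls among 9236 genes run. The genes were simulated independently of each other, so this recovery does not bear on calls that rest on pigs Sample_572 and Sample_735. Members and 36 gene lists were chosen with earlier results of these data known. MYL11 was added to the fast fibre list after the gene names were seen.

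Genes were named by rule, among those with a symbol: the 25 highest by mean CPM, up to 4 highest per list, the 12 widest and 8 narrowest, the markers, and the 8 smallest adjusted p per direction and covariate. IDs without a symbol were named only among the 10 highest or 3 widest. Further list members are named with their slopes. ANKRD1 and CSRP3 fall outside the rule.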

Additional observations from a re-analysis of the deposited data

Results flagged for a closer look

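Counts that fell in no annotated gene, which enter no gene level, made up 19.9% ± 4.01 of all counts of a muscle library (SD, n = 18), from 16.1% in pig Sample_242 to 34.1% in pig Sample_572. They drew attention as a signal outside the genes described. Next to pig Sample_572 came pig Sample_659 with 23.9% and pig Sample_735 with 21.97%.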

How the results depend on the processing

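Shares, levels and the SDs of list members came from 1 group of 18 pigs. The p-values of slopes are set against the remaining spread between those animals, and those of the goodness-of-fit test against counting noise. No paired analysis was possible because 1 tissue was described and no groups were compared. Settings that leave out pigs Sample_572 and Sample_735, or those and pig Sample_231, were chosen after seeing the data, except for the fit on ACTA1, where pigs Sample_572 and Sample_735 are the planned pair farthest from the median. With ACTA1 taken out of the totals, sarcomere genes held 6.39% and genes without a symbol 22.7%. Beyond counting noise were 1938 of 1939 genes at a mean of at least 50 CPM and 9262 of 17994 with no filter. With library totals alone the median SD was 0.387.

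Counts on ACTA1 were 131 up and 5612 down with library totals, which moved the median slope of all genes to -0.21. They were 709 up and 682 down by the DESeq2 Wald test, and 73 up and 13 down by Spearman's rho with 100000 permutations. Without the 2 farthest pigs they were 35 up and 7 down, and without 3 pigs 52 up and 21 down. Counts on TNNI1 were 11 up with library totals, 2 down with no filter, 7 up and 1 down without the 2 farthest pigs, 10 up without pigs Sample_572 and Sample_735, 58 up and 5 down by DESeq2, and 8 up by Spearman's rho. Counts on the percent outside genes were 3045 up with library totals, 1 up and 0 down without pigs Sample_572 and Sample_659, 0 and 0 without pigs Sample_572 and Sample_735, 0 and 0 without 3 pigs, 273 up and 377 down by DESeq2, and 0 and 0 by Spearman's rho (908 at an unadjusted p below 0.05).

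The direction turned for SYNPO2 on ACTA1 with library totals (-0.000636) and for PSME4 on ACTA1 without the 2 farthest pigs (0.0404) and without 3 pigs (0.0472). On the percent outside genes it turned without pigs Sample_572 and Sample_735 for PPM1M (-0.0435), HMOX2 (-0.0148), MOCS1 (-0.0832) and LPIN1 (-0.187), and without 3 pigs for PPM1M (-0.0570), MOCS1 (-0.105) and LPIN1 (-0.196). Beyond the fewer libraries and the changed scale that these settings bring, the cause was not tested. At depths of 4716541 to 6216459 gene counts, counting alone gives an SD of 0.15 where the mean is 10 to 30 CPM, against a measured median of 0.30.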

Other observations

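Several signalling genes that the report does not describe also differed between the pigs. MSTN, which encodes myostatin, a brake on muscle growth, had 1.35 CPM in pig Sample_572, a median of 14.7 and 30.7 in pig Sample_911. IRS1, an adaptor of the insulin receptor, ran from 21.3 CPM in pig Sample_231 over 74.6 to 197 in pig Sample_114, and GRB10, an inhibitor of that receptor, from 64.1 CPM in pig Sample_491 to 290 in pig Sample_735. AKT2, a kinase further down, kept between 164 and 240 CPM. Of the 15 growth and insulin genes tested, 4 fell with ACTA1 (IGF2R, GHR, MTOR and GRB10) and none rose. None of these 15 passed without pigs Sample_572 and Sample_735. MSTN and the other genes of this list outside the naming rule were picked after their values were seen.

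Clock genes also differed: PER1, a light-responsive repressor of the clock, ran from 63.8 CPM in pig Sample_991 to 423 in pig Sample_186, and 4 of the 8 clock genes measured were in the widest 10.0% of genes. The hour at which each pig was sampled is not stated.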
